A study of Mus musculus with 16 samples.

Results

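Intergenic OCT4 peaks near genes were the 6699 of 26704 peaks (25.1%) of a merged OCT4 ChIP-seq list whose midpoint lay outside every protein-coding gene body, more than 1 kb from the transcript start of any gene, and 1 to 100 kb from the nearest protein-coding transcript start, with under 50% of the bases repeat-masked. ChIP-seq sequences the DNA that an antibody precipitates with a protein, and a peak is a stretch where that DNA piles up. The series asked how loss of SOX2 or of OCT4 changes mouse embryonic stem (ES) cell chromatin and holds 16 libraries in 8 groups of 2, of which 4 profiled OCT4. Those 4 came from the 2TS22C ES cell line, in which both copies of Sox2 are inactivated and a Tet-Off transgene supplies SOX2. SOX2 ON cells were left untreated, and SOX2 OFF cells received doxycycline, which shuts the transgene, for 26 h. Both groups grew in serum with leukemia inhibitory factor (LIF), CHIR99021 and PD184352. All 4 libraries come from this 1 engineered line, and the study describes SOX2 protein that is still present after this treatment.

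The list holds coordinates alone, so a peak is present or absent and has no height, no sample and no replicate. Which of the SOX2 ON and SOX2 OFF libraries entered the merge is not stated, and the depth behind a peak is unknown. Peaks were therefore the units of every test, and each p-value describes the difference between classes of peaks in 1 list, not the spread between cultures. The other classes were 7894 distal intronic peaks, 2969 gene desert peaks more than 100 kb from a protein-coding start, 4200 peaks in repeats, 3091 promoter peaks, 1270 peaks at non-coding gene starts and 581 exonic peaks. The name intergenic refers to protein-coding genes: 834 of the 6699 peaks (12.4%) lay in the body of another annotated gene, 487 of them in a lincRNA.

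OCT4, encoded by Pou5f1, is a POU-domain transcription factor that ES cells need to stay pluripotent. It reads an octamer, alone or beside SOX2 on a composite motif in which a SOX site is followed by an OCT site. Sequence between genes that OCT4 and SOX2 occupy together often acts as an enhancer, a stretch of DNA that raises transcription of a gene at a distance.

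Members beside the genes of pluripotency factors carry composite matches of several qualities, and 3 of the regions whose best match has only 2 mismatches are printed. A composite match was allowed at most 3 mismatches to a consensus of 15 letters on either strand, the octamer was ATGCAAAT, and the SOX core was CCATTGT or CCTTTGT. Matches to any of these 3 are in capitals. All are on GRCm38 (mm10), plus strand. The Pou5f1 region (chr17:35503936-35504175) lies upstream of Pou5f1, where the distal enhancer of that gene is known to lie, the Klf4 region (chr4:55519796-55520035) lies downstream of Klf4, and the Utf1 region (chr7:139945568-139945807) lies just beyond the 3′ end of Utf1, where an enhancer bound by OCT4 and SOX2 is known.
Pou5f1: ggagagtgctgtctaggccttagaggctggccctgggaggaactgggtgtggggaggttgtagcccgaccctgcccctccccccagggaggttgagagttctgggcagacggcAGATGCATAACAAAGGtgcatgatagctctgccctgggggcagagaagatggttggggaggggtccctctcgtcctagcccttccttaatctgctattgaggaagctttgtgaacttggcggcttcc
Klf4: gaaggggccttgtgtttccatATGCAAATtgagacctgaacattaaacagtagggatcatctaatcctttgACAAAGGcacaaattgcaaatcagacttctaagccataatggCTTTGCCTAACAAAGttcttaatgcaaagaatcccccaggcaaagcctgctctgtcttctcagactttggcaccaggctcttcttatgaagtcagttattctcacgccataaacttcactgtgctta
Utf1: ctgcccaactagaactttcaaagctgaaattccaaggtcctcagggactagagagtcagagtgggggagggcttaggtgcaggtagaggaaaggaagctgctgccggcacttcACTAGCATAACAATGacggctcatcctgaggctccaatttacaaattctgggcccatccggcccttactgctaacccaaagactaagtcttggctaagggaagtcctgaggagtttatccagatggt

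The best composite matches of the members nearest to 3 other genes of this list are printed below with 12 bases to each side, in the orientation that puts the SOX site first. Capitals mark the 15 bases of the match. The Klf5 match (chr14:99278674-99278688, plus strand) has 2 mismatches. The Nr5a2 match (chr1:137003135-137003149, plus strand) and the Myc match (chr15:61979076-61979090, minus strand) have 3 each.
Klf5: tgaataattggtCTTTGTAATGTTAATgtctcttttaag
Nr5a2: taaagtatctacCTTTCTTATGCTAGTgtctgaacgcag
Myc: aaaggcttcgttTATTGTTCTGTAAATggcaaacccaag

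Every one of the 20 listed pluripotency factor genes was the nearest protein-coding gene of at least 1 member, and together they were nearest to 72 members. Of these 72, 38 (52.8%) lay upstream of the start, where 70.9% of all members did. The median distance was 34.2 kb, beside 23.6 kb for all members. The 20 members closest to each gene lay at 1.55 to 56.5 kb, with a median of 5.63 kb, and 16 of the 20 were upstream. Over all genes, 76.7% of the eligible sequence at 5 to 10 kb lies upstream. A composite match anywhere in the peak was found in 20 of the 72 (27.8%, 95% Wilson interval 18.8 to 39.1%), beside 26.3% of all members, so the share near these genes was like that of the class. The matches were spread over 13 of the 20 genes, and in 13 of the 20 the closest member had none.

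Pou5f1 was flanked by 3 members, all upstream, at 1.95, 3.25 and 17.6 kb. Only the first had a composite match, 7.5 bp from its midpoint, and the member at 3.25 kb held a SOX core and a TFCP2L1 motif. Nanog, a homeodomain factor of naive pluripotency, had 2 members upstream, at 4.76 and 17.1 kb. The nearer one was 967 bp wide, with a SOX core and no composite match. The 6 members of Sox2 lay at 4.02, 10.5 and 91.2 kb upstream and at 18.2, 84.7 and 95.1 kb downstream, and none had a composite match. Of these, 4 lay in the body of Sox2ot, a non-coding transcript that spans Sox2.

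The KLF genes, which encode zinc-finger activators of the naive state, differed in the side of their members. All 5 members of Klf4 were downstream, at 11.9, 49.3, 54.2, 56.1 and 67.4 kb, and 3 of them had a composite match. The Klf4 member at 67.4 kb was 985 bp wide. Klf5 had 1 member 19.9 kb upstream and 5 between 25.9 and 56.3 kb downstream, again with 3 composite matches among 6. Klf2 had 1 on each side, at 2.77 kb upstream and 15.3 kb downstream, without a composite match.

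Tbx3, a T-box repressor, had 7 members, and 3 of them had a composite match. Otx2, a homeodomain factor of the later epiblast, had 6 members with 1 composite match, and 5 of the 6 lay in lincRNA bodies. Myc had 6 with 1, Mycn 4 with 1, Prdm14 4 with 2 and Sall4 5 with 1. Tfcp2l1, Nr5a2, Nr0b1, Stat3 and Utf1 had a single member each. The member of Utf1 lay 1.92 kb downstream of the start. Esrrb had 2, at 56.5 and 86.9 kb downstream, the farther with a composite match, and Zfp42 had 2 without one.

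**Figure D1:**
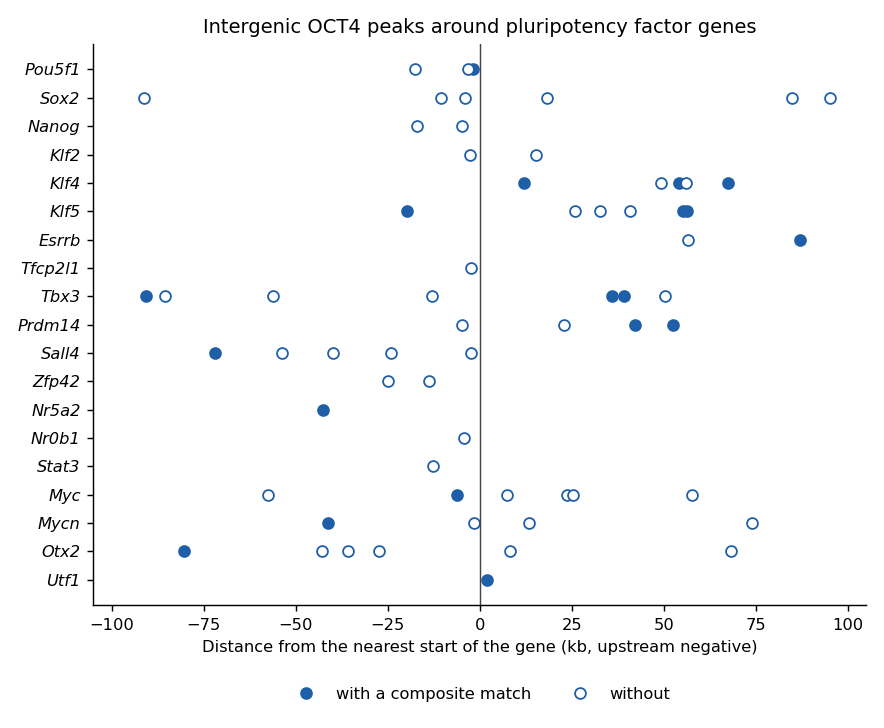
Each point is an intergenic OCT4 peak near genes, placed by the distance of its midpoint from the start of its nearest gene (x axis, kb, upstream negative), with 19 of the pluripotency factor genes on the y axis. Filled points have a composite match anywhere in the peak (19 of 65). All 5 members of Klf4 lie downstream, and those of Tbx3 and Otx2 spread to both sides.

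Members were denser beside genes of pluripotency factors, other ES cell genes and signalling genes than over the genome, when the sequence that could hold a member is counted. This sequence, the territory of a gene, is all unmasked sequence that meets the positional rule and is nearest to that gene. Over the 21853 protein-coding genes there were 16.1 members per Mb of territory, and 4226 genes (19.3%) were nearest to at least 1 member. Of the genes with a territory of at least 8.34 kb, the smallest in the pluripotency list, 33.9% had a member. The 20 pluripotency factor genes had 51.5 members per Mb (Poisson 95% interval 40.3 to 64.8), with a median of 3.5 members a gene. The median of all genes was 0, and the median territories were 68.0 and 8.28 kb.

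Among 22 other ES cell genes, 15 had a member and the density was 47.2 per Mb (30.2 to 70.2). Dppa5a, an RNA-binding protein of ES cells, and Epcam, an adhesion molecule, had 3 each, and Lefty1, Nodal, Dppa3, Tet2 and Fgfbp1 had 2 each. Fgf4, Gdf3, Lin28a and Tet1 were among the 7 without any, with small territories of 11.08, 3.02, 10.05 and 3.27 kb. Dppa4, Fbxo15 and Spp1, also without any, had larger ones of 48.11, 53.14 and 43.83 kb, while Dppa5a had its 3 members in 5.03 kb. Peaks in the bodies or at the promoters of these genes are not counted by the rule. Among 20 signalling genes, 17 had a member and the density was 52.2 per Mb (39.6 to 67.5). Socs3, the feedback inhibitor of LIF signalling, Bmp4, a ligand of the BMP pathway, Axin2, a feedback inhibitor of WNT signalling, Id2 and Spry4 had 4 each, and Lef1, a nuclear effector of WNT, had 7. These 58 members had a composite match in only 6 cases (10.3%, 4.83 to 20.8%), and no test was run on this list.

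The lists of lineage genes had densities closer to the genome-wide value. The wide intervals of the trophectoderm and germ layer lists also overlap those of the pluripotency factor, ES cell and signalling lists. The 8 primitive endoderm genes had 15.7 members per Mb (7.19 to 29.9), with 4 of their 9 members nearest to Gata6. The 8 trophectoderm genes had 29.6 (14.8 to 52.9), and 7 of their 11 members belonged to Tfap2c, which encodes an AP-2 factor. The 10 germ layer genes had 27.5 (14.6 to 47.0). The 72 cytosolic ribosomal protein genes, active in every cell, had 27.04 (16.9 to 40.9), and 14 of them (19.4%) had a member. Olfactory receptor genes had the lowest density, 5.39 (3.93 to 7.21), with a member at 36 of 1092 genes (3.30%). The lists were drawn up with earlier results of these data known, so the densities are a description.

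**Figure D2:**
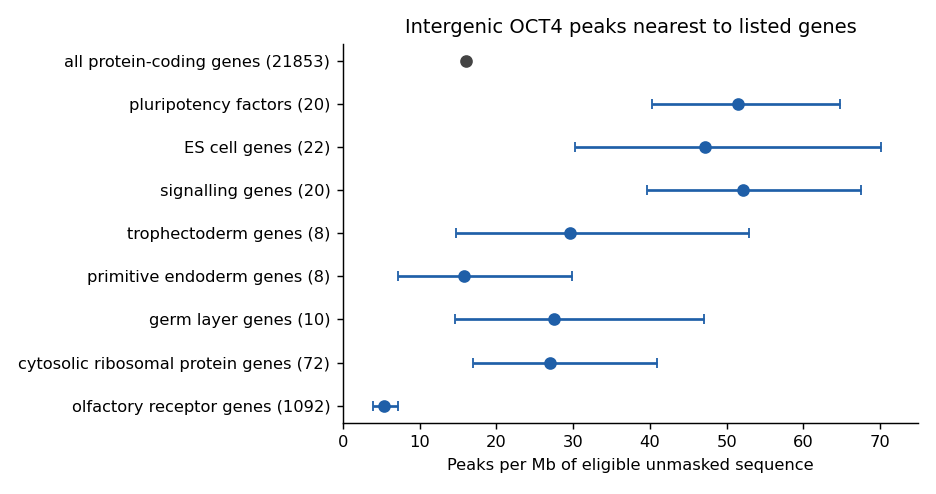
Intergenic OCT4 peaks near genes per Mb of eligible unmasked sequence (x axis) for which a gene of the list is nearest, with the number of genes in brackets on the y axis. Bars are Poisson 95% intervals, which cover counting error only. Pluripotency factor, ES cell and signalling genes lie between 47.2 and 52.2, all genes at 16.1 and olfactory receptor genes at 5.39.

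The genes with the most members were not mainly pluripotency factors. Spry2, an inhibitor of FGF receptor signalling, was nearest to 10 members, 7 of them within 50 kb, and none of the 10 had a composite match. Tle4, a Groucho co-repressor, had 9, all upstream at 6.70 to 81.9 kb, and 4 had a composite match. Sall1, a zinc-finger paralogue of Sall4, had 8 with 3 composite matches, Arl4c, a small GTPase, had 8 with 3, and Zfp706, a small zinc-finger protein, had 8 with none. Bod1, a regulator of chromosome attachment in mitosis, had 7 with 4, Egln3, a prolyl hydroxylase, had 7 with 3, and Klf9 had 7 with 1. All 9 members of Gm15319 and all 7 of Dynlt1b, a dynein light chain, lay in bodies of lincRNAs or pseudogenes. The last 4 genes of these 10 were taken by symbol from 17 genes with 7 members, which also include Tbx3 of the pluripotency list. The ranking is by count and is not corrected for territory. These 10 genes had territories of 72.5 kb (Tle4) to 144.8 kb (Bod1), where the median of all genes was 8.28 kb. In all, 108 genes had 5 or more members and 2775 had exactly 1.

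Upstream of the start, members became sparser with distance, and downstream they did not fall steadily. On both sides together their density per Mb of eligible unmasked sequence was 23.3 (20.6 to 26.3) at 1 to 2 kb from the start and flat from 2 to 20 kb, at 18.5 (17.0 to 20.1), 18.9 (17.7 to 20.3) and 18.35 (17.36 to 19.37) in the bins of 2 to 5, 5 to 10 and 10 to 20 kb. It was 15.67 (15.01 to 16.36) at 20 to 50 kb and 13.0 (12.3 to 13.6) at 50 to 100 kb. Downstream it was 8.98 at 1 to 2 kb, highest at 10 to 20 kb, at 17.1, and 12.6 at 50 to 100 kb. Because the rule used this distance, these values are a description. The median distance was 23.6 kb, and the middle 50% of members lay between 9.82 and 48.6 kb. At the outer limit, 117 non-repeat intergenic peaks fell in the last 5 kb inside it and 123 in the first 5 kb beyond it. At the repeat limit, 575 peaks of any position had 45 to 50% of their bases masked and 534 had 50 to 55%.

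Upstream of the gene was the more common side, slightly beyond what the available sequence gives. Of the 6699 members, 4748 (70.9%, 69.8 to 72.0%) lay upstream of the nearest start, where 67.9% of the eligible sequence lies (exact binomial test, two-sided, p = 1.4e-07). Since sequence downstream is scarce close to a start, the eligible share was also taken within 6 bins of distance, which gave 69.1% and a smaller difference of 1.73 percentage points (exact binomial p = 0.0022). Close to the start the difference was clearest. At 1 to 2 kb, 97.3% of 264 members were upstream with 93.1% of the sequence, and at 2 to 5 kb 89.0% of 583 with 84.8% (adjusted exact binomial p = 0.010 for both). At 20 to 50 kb the shares were 65.5% of members and 65% of sequence (adjusted exact p = 0.63). Eligible sequence lies outside gene bodies, so close to a start it lies downstream only where the gene ends shortly after that start. At 1 to 2 kb it was 0.780 Mb downstream, with 7 members, and 10.5 Mb upstream. Side and gene length therefore cannot be told apart there.

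**Figure D3:**
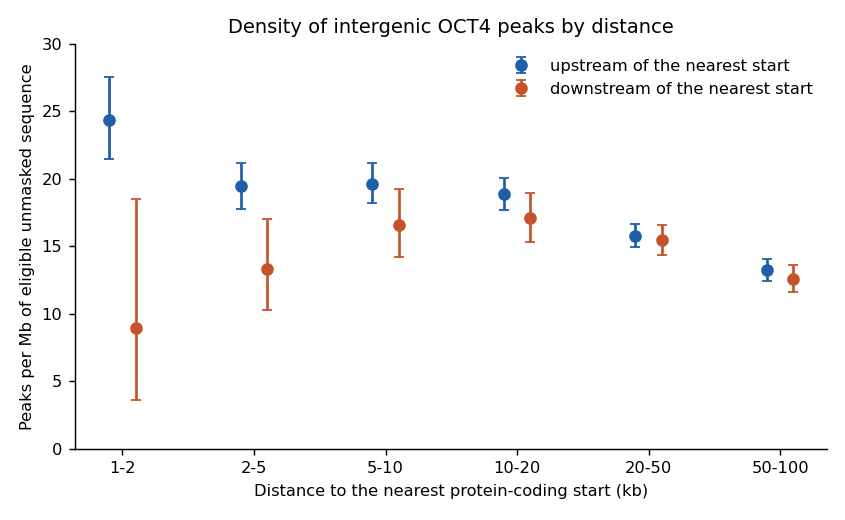
Intergenic OCT4 peaks near genes per Mb of eligible unmasked sequence (y axis) by distance from the nearest protein-coding start (x axis, kb), upstream and downstream of it. Points are 1 value per bin with Poisson 95% intervals. At 1 to 2 kb the upstream density is 24.4 and the downstream density 8.98, from 7 peaks, and at 50 to 100 kb they are 13.2 and 12.6.

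Between divergent genes, whose starts face each other, members had a density of 16.9 per Mb (16.2 to 17.6), between tandem genes 16.0 (15.5 to 16.6), and between convergent genes 14.9 (13.9 to 15.8). By chromosome, members had a density of 16.9 ± 2.05 per Mb of eligible sequence on autosomes (SD over 19 autosomes). Chromosome 7 was lowest among them, at 13.4, and chromosome 11 highest, at 21.8. On the X chromosome the density was 7.06 (6.12 to 8.11), below every autosome. It was also low on the Y chromosome, at 5.34 (1.73 to 12.45) from 5 members. Read depth by chromosome is unknown, and a cause was not tested.

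In sequence, members were marked above all by the motifs of OCT4 and SOX2. The composite motif was present in the central 200 bp of 1299 of 6699 members (19.4%, 18.5 to 20.4%) and in 281 of 9698 windows of the same length 5 kb to either side (2.90%). The odds ratio was 8.06 (7.06 to 9.21, Fisher's exact test, adjusted p = 9.6e-275). The octamer was found in 7.78% of members and 1.01% of windows (odds ratio 8.26) and the SOX core in 22.1% and 6.95% (odds ratio 3.79). Both overlap the composite motif. Outside composite matches, 5.00% of members still held an octamer and 20.7% a SOX core. Still, 59.1% of members had none of the 3 motifs in the central 200 bp, and 46.0% had none anywhere in the peak.

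Of 25 motifs tested, 16 (64%) were called higher in members than in the windows and 0 (0%) lower, at an adjusted p under 0.05 (16 at an unadjusted p under 0.05). The windows had 45.2 ± 7.65% GC (SD over windows) and the members 46.6 ± 5.75% (SD over peaks). After the composite motif and its parts, odds ratios over 2 belonged to motifs of NRF1, of OCT4 dimers and of 3 other naive pluripotency factors. The TFCP2L1 motif was in 18 members (0.269%) and 6 windows (0.0619%), with an odds ratio of 4.35 (1.73 to 10.97). The NRF1 motif GCGCATGCG was in 14 members (0.209%) and 5 windows (0.0516%), with an odds ratio of 4.06 (1.46 to 11.28). These 2 odds ratios rest on few matches and are imprecise. The motif of the nuclear receptor ESRRB, TCAAGGTCA, was in 1.67% and 0.505% (3.35), the MORE part ATGCATATG, bound by OCT4 dimers, in 0.806% and 0.330% (2.45), and the KLF motif GGGNGTGGC in 2.67% and 1.31% (2.07).

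The remaining called motifs had odds ratios under 2. The motif of TCF7L1, the nuclear repressor of WNT targets, ATCAAAG, was in 6.06% of members and 3.40% of windows (1.83), and the ZIC motif CAGCAGG in 10.0% and 5.83% (1.80). The TEAD motif GGAATGT was in 5.17% and 3.04% (1.74), and that of STAT3, the effector of LIF, TTCCNGGAA, in 1.24% and 0.732% (1.70). The FOX motif TGTTTAC gave 1.53, the AP-2 motif GCCNNNGGC 1.51, the GATA motif AGATAAG 1.37 and the NANOG motif GCCATTA 1.30. The NANOG motif was in 2.33% of members and 1.79% of windows, and 2.18% of members held it outside composite matches. The AP-1 motif TGANTCA (7.37% and 6.64%), the RUNX motif, the CTCF motif, the GC box and 5 others were not called.

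**Figure D4:**
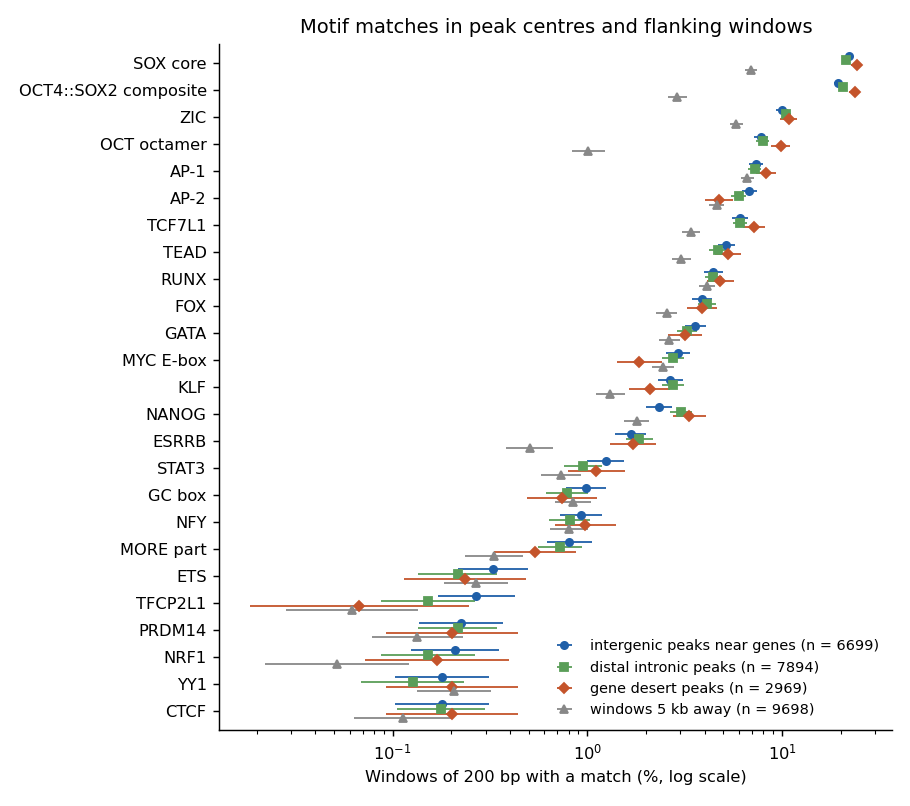
Share of 200 bp windows with a match to each of 25 motifs (x axis, percent, log scale) in intergenic OCT4 peaks near genes, distal intronic peaks, gene desert peaks and windows 5 kb from the members. Bars are 95% Wilson intervals. The composite motif is in 19.4%, 20.7%, 23.6% and 2.90% of these windows, and the 3 peak classes lie close together for most motifs.

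Within the composite match, members kept some positions more often than the 281 matches of the flanking windows. Of 15 positions, counted from 1 at the 5′ end of the SOX site, 5 (33.3%) matched the consensus more often in members and 3 (20%) less often (Fisher's exact test, adjusted p under 0.05). Every match was required to keep at least 12 of the 15, so the shares are tied: higher shares at some positions go with lower shares at others. The T at position 9 and the G at position 10, inside the OCT site, were kept in 93.2% and 83.2% of 1299 members and in 83.3% and 71.2% of the windows (adjusted p = 1.1e-05 and 5.6e-05 by Fisher's exact test). The A at position 8, where the OCT site starts, was kept in 86.1% and 82.2% (Fisher's exact test, adjusted p = 0.15). The positions 3 and 4 of the SOX site and position 11 were also kept more often. Position 12 was kept less often, in 76.3% against 86.8%, and held T in place of the consensus A in 19.5% of members. Positions 7 and 15 were also kept less often, at 84.8% against 91.1% and 69.8% against 81.1%.

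**Figure D5:**
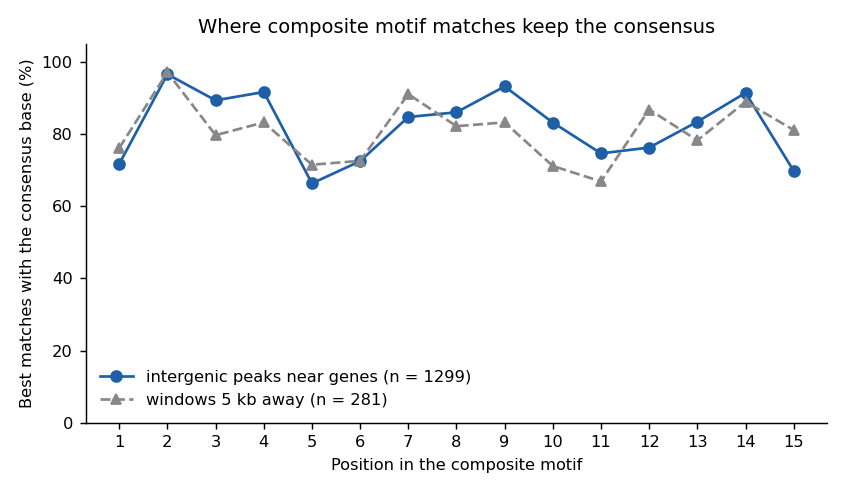
Share of best composite matches with the consensus base (y axis, percent) at each of 15 positions (x axis), in 1299 intergenic OCT4 peaks near genes and in 281 windows 5 kb away. Members are higher at positions 3, 4, 9, 10 and 11 and lower at 7, 12 and 15.

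Counted over the whole peak, 1762 members (26.3%) had a composite match, at a median of 49 bp from the midpoint. The best match was exact in 1 member, had 1 mismatch in 61, 2 in 405 and 3 in 1295. More than 1 match was found in 191 members, and the most in any was 5. Members with a match had a median width of 403 bp and those without 344 bp, but a wider peak also offers more places for a match.

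The exact match and the members with the most matches of at most 2 mismatches are printed for comparison with the weaker ones above, as 15 capitals with 12 bases on each side. The exact match (chr15:59174386-59174400, plus strand) lay 92.4 kb upstream of Mtss1, a membrane-bending scaffold protein, 11.5 bp from the midpoint of a peak of 433 bp. The member 90.7 kb downstream of Dusp6, a phosphatase of the ERK pathway, held 2 such matches (chr10:99353686-99353700 and chr10:99354424-99354438) in a peak of 1342 bp, and lay in a lincRNA body. The member 20.8 kb upstream of Syk, a tyrosine kinase, also held 2 (chr13:52562275-52562289 and chr13:52562337-52562351), of which the second had 1 mismatch. In the member 23.9 kb upstream of Akap12, an anchoring protein of kinases, the 2 matches (chr10:4242334-4242348 and chr10:4242339-4242353) overlap on opposite strands, so they share most of their bases. Members near Fam124b and Kansl1 held 2 each.
Mtss1: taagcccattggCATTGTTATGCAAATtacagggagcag
Dusp6 first: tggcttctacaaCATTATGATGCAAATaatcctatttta
Dusp6 second: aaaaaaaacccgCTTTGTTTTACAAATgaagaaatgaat
Syk first: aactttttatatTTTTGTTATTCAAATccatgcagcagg
Syk second: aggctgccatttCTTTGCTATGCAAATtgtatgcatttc
Akap12 first: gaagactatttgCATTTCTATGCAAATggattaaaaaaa
Akap12 second: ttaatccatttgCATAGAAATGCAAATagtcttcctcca

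Most composite matches were unlike each other. The 1762 best matches were made of 1420 different sequences of 15 bases, of which 1257 occurred once. The commonest are printed because they differ in where they lie: sequence A, with 2 mismatches, was the best match of 14 members, only 3 of them in repeat-masked bases, while sequences B, C and D, with 3 mismatches each, were found in 13, 11 and 10 members, in every case in masked bases. Capitals mark the whole match.
Sequence A: CTTTGATATGCTAAT
Sequence B: TATTGTAATGCTAAA
Sequence C: TTTTGTTGTGCAAAC
Sequence D: CTTTGATATGTAAAA

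Of the 181 members whose match sequence was shared by 5 or more members, 139 had the match in masked bases, against 137 of the 1257 members (10.9%) with a sequence found once. Over all members 352 matches (20.0%, 18.2 to 21.9%) lay in masked bases, which make up 16.2% of the members' sequence. With only peaks under 25% masked kept, the odds ratio of the composite motif against flanking windows was 7.98.

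The composite motif had no preferred direction toward the gene. The OCT site lay on the side of the nearest start in 878 of 1762 members (49.8%, 47.5 to 52.2%, exact binomial test against 50%, p = 0.91). The motif content also showed no call between the 1700 members within 10 kb of a start and the 4999 beyond it: of 25 motifs, 0 (0%) were called in either direction by Fisher's exact test, and 0 at an unadjusted p under 0.05. The composite motif was in 18.2% of the near and 19.8% of the far members. This comparison, the next one and that of positions were chosen after the data were seen.

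Members with a composite match in the central 200 bp were compared with the 5400 without one for 21 motifs that are not parts of it. The TCF7L1 motif alone was called, higher with the composite motif (1 of 21, 4.76%, and 0%, that is 0, called lower; 4 at an unadjusted p under 0.05), at 8.47% against 5.48% (odds ratio 1.60, Fisher's exact test, adjusted p = 0.0020). The TCF7L1 motif can share bases with the SOX site. Of the 110 members with both, 60 had a TCF7L1 match only where it overlapped a composite match, as in sequence A, whose first 7 bases are a TCF7L1 match. Outside composite matches, 3.85% of members with the composite motif held one.

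Set against distal intronic peaks, members were alike in motif content. Of 25 motifs, 0 were called higher (0%) and 0 lower (0%) by Fisher's exact test, with 1 at an unadjusted p under 0.05, the NANOG motif. The composite motif was in 19.4% of members and 20.7% of intronic peaks (odds ratio 0.92, 0.85 to 1.00, adjusted p = 0.47 by Fisher's exact test). Of 32896 8-mers, each joined with its reverse complement, 0 (0%) were called in either direction by Fisher's exact test, and 1759 had an unadjusted p under 0.05. The classes differed in arrangement. Another OCT4 peak lay within 10 kb of 38.8% of members and 31.9% of intronic peaks, a difference of 6.87 percentage points (5.32 to 8.43, odds ratio 1.35, Fisher's exact p = 4.9e-18). Of all members, 27.9% had another member within that distance. Without promoter peaks as neighbours the shares were 36.3% and 29.3%. Peaks that lie close together count as neighbours of each other and are not independent. The interval and p-value of the 10 kb comparison are therefore too narrow. Members were also slightly wider, with 51.8% against 49.2% at or above 352 bp, the median of the list (difference 2.65 points, 1.02 to 4.27, Fisher's exact p = 0.0015), and 21.7% against 18.2% at 500 bp or more. At least 1 CpG was in 82.6% and 81.3% of central windows (difference 1.30 points, 0.048 to 2.55, Fisher's exact p = 0.043). That call was lost with only the first peak of each run of peaks kept, at p = 0.052, and without members in other gene bodies, at p = 0.099 (Fisher's exact test).

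Set against gene desert peaks, fewer members held the composite motif or the octamer, and more held a CpG. Of 25 motifs, 2 (8%) were called higher and 3 (12%) lower, by Fisher's exact test. The composite motif was lower, at 19.4% against 23.6% (odds ratio 0.78, 0.70 to 0.87, adjusted p = 9.1e-05 by Fisher's exact test), as were the octamer (7.78% against 9.84%, odds ratio 0.77) and the NANOG motif (2.33% against 3.33%, 0.69). The SOX core was in 22.05% and 24.12% and did not pass the test (odds ratio 0.89, 0.80 to 0.99, Fisher's exact test, adjusted p = 0.11). The AP-2 motif was higher (6.79% against 4.75%, odds ratio 1.46), as was the MYC E-box CACGTG (2.93% against 1.85%, 1.60). Members had a mean GC content of 46.6% and desert peaks 44.8%. Among windows with 40 to 50% GC the composite motif kept its call, with an odds ratio of 0.81 (adjusted p = 0.014 by Fisher's exact test), and 2 motifs were called in place of 5.

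At least 1 CpG was in 82.6% of members and 74.2% of desert peaks (difference 8.35 points, 6.55 to 10.2, odds ratio 1.65, Fisher's exact p = 1.5e-20). Of the 8-mers, 3 (0.00912%) were called higher, all with a CpG, and 2 (0.00608%) lower. The one higher 8-mer in at least 1% of windows, CCACGCCC, was in 1.57% of members and 0.404% of desert peaks (ratio 3.88, Fisher's exact test, adjusted p = 0.0055). Its reverse complement matches the first 8 bases of the KLF motif. The KLF motif itself was not called, at 2.67% against 2.09% (odds ratio 1.29, 0.96 to 1.72, Fisher's exact test, adjusted p = 0.25). The lower ones were GAAATTAC (0.433% and 1.31%) and ATGAACAG (0.567% and 1.62%). A neighbouring peak within 10 kb was found for 38.8% of members and 28.2% of desert peaks, and for 36.3% and 28.2% when promoter peaks were not counted as neighbours. Desert peaks lie by rule far from promoters and most gene bodies, so these shares are a description. The share at or above the median width did not differ detectably (51.8% and 52.3%, difference -0.54 points, -2.70 to 1.62, Fisher's exact p = 0.63).

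The widest members measured 1767, 1606 and 1453 bp, where the median was 359 bp. The widest lay 24.0 kb upstream of Il6st, which encodes gp130, the signalling receptor of LIF (chromosome 13, 112439183 to 112440949). It held a KLF motif, a GC box and a SOX core but no composite match, and 57.5% of its central bases were G or C. The next lay 45.6 kb upstream of Slc44a3 and held a composite match with 3 mismatches, 60.5 bp from its midpoint, and an octamer. The third lay 69.6 kb upstream of Slc4a7, a bicarbonate transporter, and held a SOX core without a composite match.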

How the data were processed

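OCT4 ChIP-seq reads from 2TS22C cells were aligned to mm10 by the authors with STAR 2.6.1c, deduplicated with Picard, and peaks were called with MACS2 2.1.1.20160309 and merged with bedtools, per the labels and the study's methods. What was deposited is, for each merged peak, a chromosome with its first and last coordinate in base pairs. The authors' columns give no height or library, so depth is unknown, groups were not compared, and the BRG1 and H3K27ac libraries were not analysed here.

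Peaks were placed by midpoint on GRCm38 with GENCODE M21 and the soft-masked RefSeq sequence of that build, and coordinates are 1-based. Gene bodies are those of protein-coding genes. A start is that of a protein-coding transcript, and eligible sequence is every unmasked base that meets the positional rule for a member. Windows 5 kb to each side were free of other peaks, and those with 50% or more masked bases were left out (3502). Their position was not restricted, so unlike members they could lie in gene bodies or near starts. Motifs were searched on both strands, with no mismatch except in the composite motif. Differences between shares were assessed with Fisher's exact test (two-sided), Benjamini-Hochberg adjusted over the motifs, positions or 8-mers compared, with Woolf intervals of odds ratios, Newcombe intervals of differences and Wilson intervals of shares, all 95% and for counting error only. Sides and directions were compared by two-sided exact binomial tests. Simulated data were used to test the script for 8-mers. Computations ran in Python 3.11.15 with SciPy 1.17.1 and NumPy 2.4.6, and plots were drawn with matplotlib 3.10.9.

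Named in the text, by rule, are the member nearest to each pluripotency factor gene, the 10 genes with the most members (ties by symbol), exact composite matches and the 5 other members with the most matches of at most 2 mismatches, the 3 widest members, the 5 called 8-mers with the largest ratio per direction in at least 1% of windows, and every called motif. Values of 1 gene that the rule names are not reported here. Other members named were chosen after their values were seen. Members, lists and tests were chosen with earlier results of these data known.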

Additional observations from a re-analysis of the deposited data

How the results depend on the processing

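Each result was recomputed under other motif thresholds, windows, distances, repeat or GC limits, or with 1 peak per run of peaks within 10 kb, which gave 72 alternative values for 14 results, and 64 kept direction and call (for counts, stayed within 1.5 times). The slight excess of CpG over distal intronic peaks was lost with the first peak of each run (odds ratio 1.10, exact p = 0.052) and without members in non-coding gene bodies (1.08, exact p = 0.099). The number of motifs called against gene desert peaks was 2 in place of 5 with windows of 40 to 50% GC. In those 3 cases the alternative holds fewer peaks, and the cause was not tested. The share of OCT sites toward the gene, 49.8%, crossed 50% without a call: 51.2% with at most 2 mismatches, 50.2% with at most 4, 50.5% with the first peak of each run and 51.4% within 50 kb. The width odds ratio against gene desert peaks turned from 0.98 to 1.09 with a limit of 500 bp, again without a call. Leaving out members in non-coding gene bodies, leaving out promoter peaks as neighbours, and taking the eligible share of sequence within distance bins were chosen after seeing the data. No paired analysis was possible because no library or replicate has a column of its own. The list cannot show peaks under the calling threshold or how strongly a peak was bound.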
